A study of Rattus norvegicus with 12 samples.

Results

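Expression of 10 genes of prostaglandin synthesis, export, uptake, breakdown and reception was followed in cultured epithelium of the rat inner medullary collecting duct (IMCD), where the urine takes on its final concentration. The members were listed by name, with earlier results of these data known. All 10 of 10 had a probe set with a single gene symbol, out of 14506 genes measured. Where a gene had several probe sets, the one with the highest mean over the 12 arrays was used, which concerned Abcc4 with 3 and Ptger2 with 2. The members are Ptgs1, Ptgs2, Ptges, Abcc4, Slco2a1, Hpgd, Ptger1, Ptger2, Ptger3 and Ptger4.

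The cells were primary cultures from kidneys of male SD rats aged 7 weeks. All groups share a first culture of 4 days at 640 mOsm/kg. There were 4 groups of 3 arrays each: cells then moved to 300 mOsm/kg for 48 h, cells kept at 640 for 48 h, cells moved to 300 for 24 h, and cells kept at 640 for 24 h. Titles, treatment labels and design text give these groups, and the description field of the 24 h samples at 300 and of the 48 h samples at 640 carries codes with another osmolality. The samples do not include cells from before the step. No label ties a replicate to an animal or a culture of its own, so the p-values reflect the spread among these samples alone, which may be technical.

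Prostaglandins are lipid signals made from arachidonate, which phospholipases free from membranes. A cyclooxygenase turns arachidonate into the intermediate prostaglandin H2, and terminal synthases turn that into the final products, of which prostaglandin E2 dominates in the renal medulla. Prostaglandin E2 leaves cells through the pump encoded by Abcc4, acts on 4 EP receptors at the cell surface, is taken up again by the transporter encoded by Slco2a1 and is inactivated by the dehydrogenase encoded by Hpgd. In the collecting duct it is known as a local brake on vasopressin-stimulated water transport.

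The values are log2 signals of probe sets on Affymetrix Rat Gene 1.0 ST arrays, and having 3 arrays in each group limits their precision. They were not on one scale, so changes are also given after subtracting each array's median (centred arrays) where that altered a call: the median over genes was between 6.81 and 6.97 at 48 h, between 7.43 and 7.58 on 4 arrays at 24 h, and 6.89 and 6.90 on replicate 1 at 300 and replicate 3 at 640 of that time. Arrays also resembled each other across osmolalities: within each time, the deviations from the group means of replicate 2 at 300 and replicate 2 at 640 correlated over genes at 0.795 (48 h) and 0.844 (24 h), and those of replicate 1 at 300 and replicate 3 at 640 at 0.78 and 0.825. The remaining pair, replicate 3 at 300 and replicate 1 at 640, had 0.631 and 0.576. No label says what these arrays share, centring does not alter these correlations, and the tests treat the arrays as independent, so the part of this resemblance in the results was not tested. Aqp2, the vasopressin-regulated water channel that defines principal cells, had log2 values of 7.39, 6.51 and 7.39 at 300 against 11.58, 11.40 and 11.53 at 640 after 48 h, and of 7.22, 7.40 and 7.32 at 300 against 11.76, 10.33 and 10.74 at 640 after 24 h. The 13 collecting duct markers were bright, with a median at the 85.3rd percentile of all genes by mean signal, and those of intercalated cells dim, at the 23rd. Between them lay the medians of interstitial cell and fibroblast (50.6th), endothelial (45.7th), limb (37.0th) and macrophage markers (34.6th). Detection calls were not used here, so no marker can be called absent.

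At 48 h, 2 of the 10 genes were lower at 300 than at 640 mOsm/kg by the test used throughout (limma over all 14506 genes, with a call where the p adjusted by Benjamini-Hochberg was under 0.05). These were the cyclooxygenase Ptgs1 and the exporter Abcc4, and 0 were higher. Over all genes, 0.545% were called lower and 0.172% higher at 48 h. All 3 arrays at 300 lay below all 3 at 640 for 7 of the 10 genes, against 6.62% of all genes. The median change of the 10 was -0.58 on the log2 scale, against 0.02 over all genes. Since the 10 were chosen with earlier results of these data known, the comparisons with all genes are descriptive. At 24 h limma called 0 of the 10, with 0.0896% of all genes called in either direction. An unadjusted p under 0.05 was found for 3 of the 10, against 421 of all 14506 genes. All 3 arrays at 300 lay below all 3 at 640 for 4 of the 10 genes at that time, against 2.69% of all genes, and the median change was -0.31, against -0.02. On centred arrays this held at 24 h for 2 of the 10 genes, Ptgs2 and Abcc4, against 4.86% of all genes. In bulk samples such as these, fewer cells of a type and less RNA per cell cannot be told apart.

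**Figure D1:**
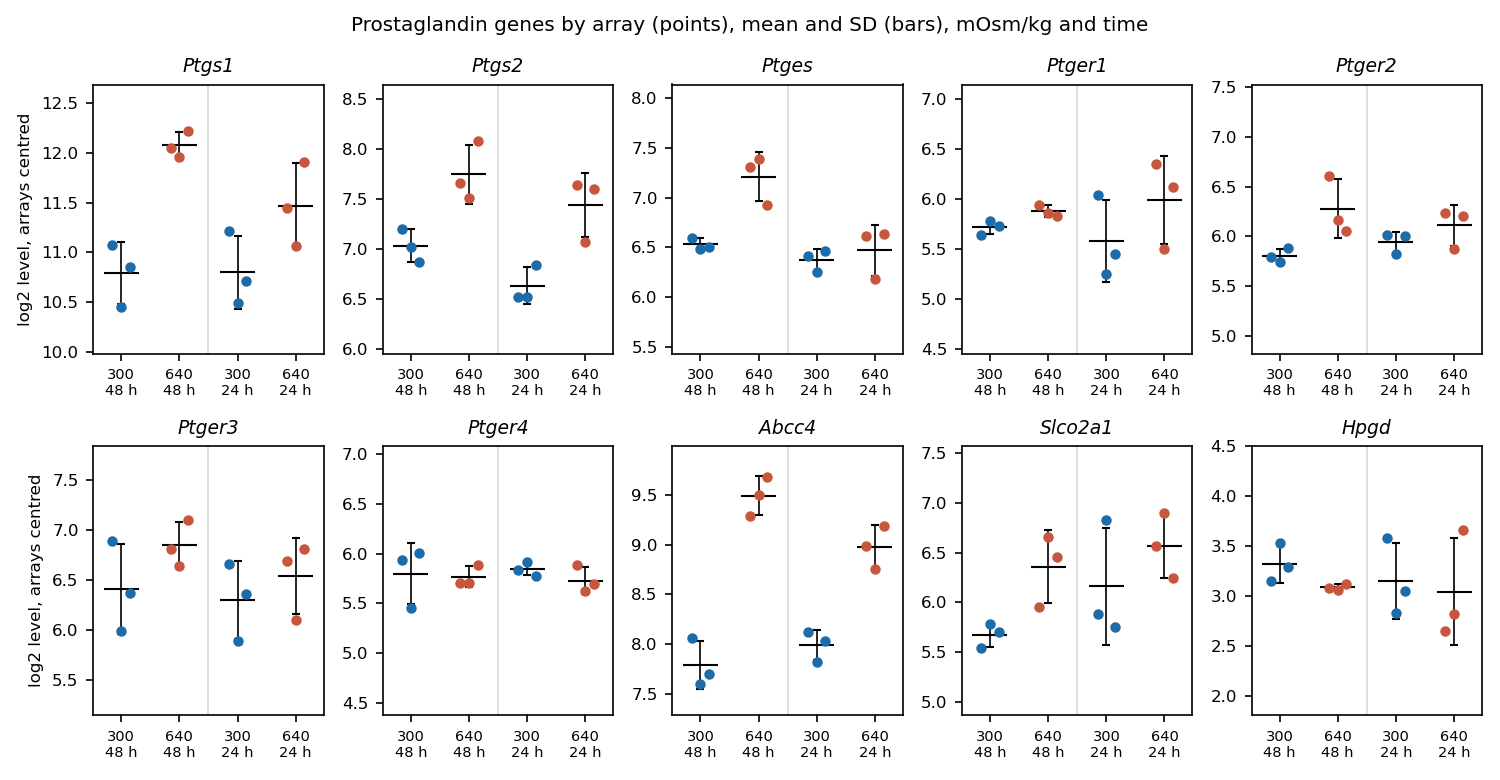
Log2 level of each prostaglandin gene on every array, with arrays centred on their medians (blue at 300 mOsm/kg, red at 640 mOsm/kg, with 48 h left and 24 h right of the grey line). Each vertical axis has its own range of equal span, and horizontal bars and whiskers give the mean and SD of 3 arrays. Of the 10 genes, 8 have lower means at 300 at both times, while Ptger4 and Hpgd have higher ones. At 24 h the groups of Ptgs2 and Abcc4 are separate, and those of the other genes overlap, Ptgs1 among them.

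Ptgs1 encodes the constitutive cyclooxygenase COX-1, which in the rodent kidney is abundant in collecting duct cells. After 48 h its log2 values were 10.92, 10.24 and 10.58 at 300, against 11.77, 11.74 and 12.10 at 640. Every array at 300 was below every array at 640, with means of 10.58 ± 0.338 and 11.87 ± 0.200 (SD, n = 3 each). Ptgs1 fell 2.44-fold (log2 change -1.29 ± 0.205 SE, limma adjusted p = 0.00517). After 24 h the values were 11.00, 10.98 and 11.08 at 300, against 11.78, 11.54 and 11.72 at 640. The groups did not overlap there either, but the change of -0.66 ± 0.205 did not pass over all genes (limma adjusted p = 0.720). On centred arrays the groups at 24 h overlapped, because replicate 1 at 300 (11.21) lay above replicate 2 at 640 (11.06), and the change was -0.67 (limma adjusted p = 0.495).

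Ptgs2 encodes COX-2, the inducible cyclooxygenase, which in the medulla is known mainly from interstitial cells. Its log2 values after 48 h were 7.04, 6.81 and 6.60 at 300, against 7.38, 7.29 and 7.96 at 640. After 24 h they were 6.32, 7.01 and 7.21 at 300, against 7.98, 7.55 and 7.40 at 640. The groups did not overlap at either time. Without replicate 1 at 300 the change at 24 h was -0.53. With all arrays the change was -0.73 ± 0.267 SE at 48 h (limma adjusted p = 0.614) and -0.80 ± 0.267 at 24 h (limma adjusted p = 0.860), so it did not pass at either time, and on centred arrays it did not pass either (limma adjusted p = 0.106 and 0.111 at 48 and 24 h). Averaged over both times, Ptgs2 had -0.76 ± 0.189 (limma adjusted p = 0.0701), and on centred arrays the mean change of -0.77 ± 0.143 passed (limma adjusted p = 0.00530). The same average gave -0.97 ± 0.145 for Ptgs1 (limma adjusted p = 0.00214) and -1.34 ± 0.158 for Abcc4 (limma adjusted p = 0.000264). For the average, 2 of the 10 genes were called lower on the deposited values, with 0.869% of all genes called lower, and 3 of the 10 on centred arrays, with 2.10%.

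Ptges encodes the inducible microsomal prostaglandin E synthase, which acts downstream of the cyclooxygenases. At 48 h its log2 values were 6.44, 6.26 and 6.24 at 300, against 7.02, 7.17 and 6.81 at 640. The groups were separate, with a change of -0.69 ± 0.215 SE that did not pass (limma adjusted p = 0.347, and 0.0684 on centred arrays). The call was made under 2 other settings. With cyclic loess between the arrays the adjusted p from limma was 0.0311, and without the 2 low-median arrays at 24 h it was 0.0463, the change at 48 h being -0.69 in both. At 24 h the values of Ptges were 6.20, 6.74 and 6.82 at 300, against 6.94, 6.66 and 6.43 at 640, so the groups overlapped. The change of -0.09 had a 95% interval from -0.55 to 0.37.

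Abcc4 encodes the multidrug resistance protein MRP4, an ATP-driven pump of the cell membrane that carries prostaglandin E2 and cyclic nucleotides out of cells. At 48 h its brightest probe set read 7.91, 7.39 and 7.43 at 300, against 9.00, 9.27 and 9.56 at 640. The highest array at 300 was below the lowest at 640, with means of 7.57 ± 0.290 and 9.28 ± 0.279 (SD, n = 3 each). Abcc4 fell 3.26-fold (log2 change -1.70 ± 0.223 SE, limma adjusted p = 0.00125), the change furthest from 0 among the 10 genes. At 24 h the values were 7.91, 8.31 and 8.40 at 300, against 9.33, 9.24 and 8.99 at 640. These groups were separate as well, with a change of -0.98 ± 0.223 that did not pass on the deposited values (limma adjusted p = 0.204). It passed on centred arrays (-0.99 ± 0.182, limma adjusted p = 0.0214, where 0.379% of all genes were called lower) and with cyclic loess (-0.96, limma adjusted p = 0.0168).

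The other probe sets of Abcc4 carry the same gene symbol, and their positions in the transcript were not examined. In a fit over all 15310 probe sets with 1 symbol, the 3 of Abcc4 changed by -1.70, -1.76 and -1.17 at 48 h (limma adjusted p = 0.00144, 0.00543 and 0.0451), so each of them passed. The third read 7.68, 7.12 and 7.36 at 300, against 8.71, 8.53 and 8.43 at 640. At 24 h the same 3 probe sets had -0.98, -1.09 and -0.70, and none passed (limma adjusted p = 0.213, 0.355 and 1). The arrays of the third overlapped there, since replicate 2 at 300 (8.34) was above replicate 3 at 640 (8.27). The pair of Ptger2 probe sets held identical values on all 12 arrays and is therefore 1 measurement.

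**Figure D2:**
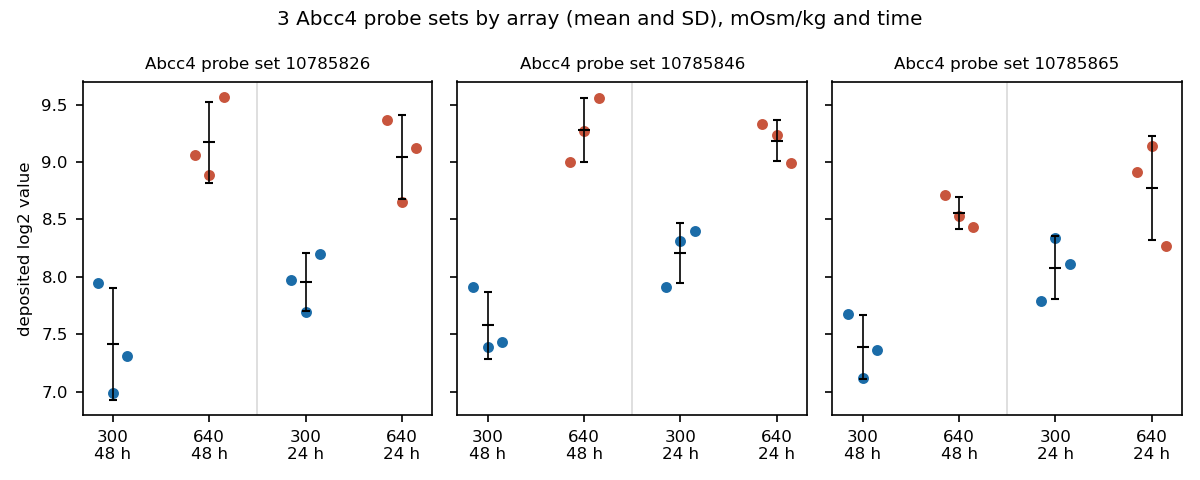
Deposited log2 values of the 3 Abcc4 probe sets on every array (blue at 300 mOsm/kg, red at 640 mOsm/kg, 48 h left and 24 h right), with the mean and SD of 3 arrays in black. At 48 h all 3 arrays at 300 lie below all 3 at 640 in every probe set. At 24 h the groups of probe set 10785865 overlap.

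Because Ptgs1 and Abcc4 are the members that were called, the DNA around their start sites is shown, from 250 bases before to 50 bases after 1 start per gene from the RefSeq table, which for Abcc4 lies inside the annotated gene and not at its outer 5′ end. The Ptgs1 window lies at chr3:39981169-39981468 on the plus strand and the Abcc4 window at chr15:102181315-102181614 on the minus strand of GRCr8, both written 5′ to 3′ along the gene. Both strands were searched for TGGAAA, the first letters of the tonicity-responsive enhancer to which the factor NFAT5 binds, for the full consensus of that enhancer, which contains those letters, for TATAAA, for TGACGT (part of a cyclic AMP response element), for TGAGTCA (an AP-1 site) and for GGGCGG (a GC box). Capitals mark every match.
Ptgs1: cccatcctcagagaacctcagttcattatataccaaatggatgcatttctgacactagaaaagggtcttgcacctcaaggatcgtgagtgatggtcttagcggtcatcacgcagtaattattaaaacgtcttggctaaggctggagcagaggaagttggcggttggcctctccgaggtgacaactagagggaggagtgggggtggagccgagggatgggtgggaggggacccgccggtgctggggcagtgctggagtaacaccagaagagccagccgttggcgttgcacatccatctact
Abcc4: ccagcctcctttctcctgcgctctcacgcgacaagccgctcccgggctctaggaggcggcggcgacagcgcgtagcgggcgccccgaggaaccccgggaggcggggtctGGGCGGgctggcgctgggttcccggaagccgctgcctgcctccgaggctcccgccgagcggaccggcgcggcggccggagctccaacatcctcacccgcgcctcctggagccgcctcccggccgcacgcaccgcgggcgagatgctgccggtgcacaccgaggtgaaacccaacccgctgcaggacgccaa
The Ptgs1 window held none of the 6 motifs. The Abcc4 window held 1 GGGCGG, 141 bases before the start, and none of the others. Of 33469 windows of the same length in the RefSeq table, 22.7% held TGGAAA, 5.98% the full enhancer consensus, 14.2% TATAAA, 7.94% TGACGT, 4.63% TGAGTCA and 33.1% GGGCGG. The windows differed in base composition, with 54.3% G and C in that of Ptgs1 and 75.3% in that of Abcc4, against a median of 51.7% over all windows.

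Slco2a1 encodes the prostaglandin transporter PGT, which brings prostaglandins back into cells. At 48 h it read 5.39, 5.56 and 5.43 at 300, against 5.67, 6.44 and 6.34 at 640. The groups were separate, with a change of -0.69 ± 0.388 SE that did not pass (limma adjusted p = 1.00). At 24 h the arrays of 1 group differed by more than the groups did, with 5.68, 7.33 and 6.12 at 300, against 6.90, 7.37 and 6.05 at 640. The change of -0.40 at that time ranged from -0.88 to -0.05 when single arrays were left out. Hpgd encodes the dehydrogenase that starts prostaglandin breakdown. It was dim throughout, at the 5.29th percentile of all genes by mean signal, with log2 values between 2.79 and 3.46. Its change was 0.24 at 48 h (95% interval from -0.17 to 0.64) and 0.12 at 24 h (from -0.28 to 0.52).

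None of the genes of the EP receptors passed at either time. Ptger1, whose product couples to calcium signals, had 5.48, 5.57 and 5.46 at 300 against 5.65, 5.63 and 5.71 at 640 after 48 h, and 5.84, 5.74 and 5.82 at 300 against 6.68, 5.97 and 5.92 at 640 after 24 h. Its groups were separate at both times, though not at 24 h on centred arrays, and the differences were small, with log2 changes of -0.16 ± 0.208 SE at 48 h and -0.39 ± 0.208 at 24 h (limma adjusted p = 1.00 at each). Leaving out replicate 1 at 640, the highest array, brought the change at 24 h to -0.15.

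Ptger2 and Ptger4 encode the receptors that raise cyclic AMP. Ptger2 read 5.63, 5.52 and 5.61 at 300, against 6.32, 5.94 and 5.93 at 640 after 48 h. These arrays were separate, with a change of -0.48 ± 0.216 SE (limma adjusted p = 0.998, 95% interval from -0.94 to -0.01). After 24 h the Ptger2 arrays overlapped, with 5.81, 6.32 and 6.37 at 300, against 6.57, 6.35 and 6.01 at 640. Ptger4 overlapped at both times, with 5.79, 5.24 and 5.74 at 300 against 5.42, 5.48 and 5.77 at 640 after 48 h. Its change was 0.03 at 48 h (95% interval from -0.51 to 0.58) and 0.13 at 24 h (from -0.42 to 0.68).

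Ptger3 encodes the receptor that lowers cyclic AMP and through which prostaglandin E2 opposes vasopressin. It read 6.73, 5.77 and 6.10 at 300, against 6.52, 6.41 and 6.98 at 640 after 48 h, and 6.45, 6.38 and 6.73 at 300, against 7.02, 6.58 and 6.62 at 640 after 24 h. The groups overlapped at both times, with changes of -0.44 ± 0.255 SE and -0.22 ± 0.255 at 48 and 24 h (limma adjusted p = 1.00 at each). At 48 h replicate 1 at 300 was the array that overlapped with those at 640, and the other two lay below them. The change ranged from -0.70 to -0.22 at 48 h and from -0.33 to -0.08 at 24 h when single arrays were left out.

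**Figure D3:**
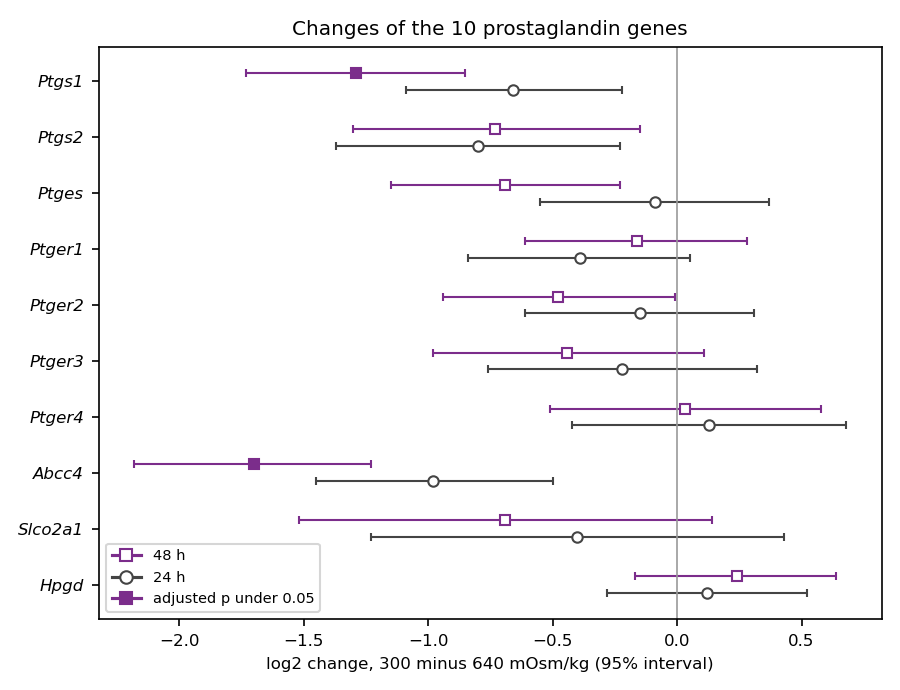
Log2 change, 300 minus 640 mOsm/kg, of each of the 10 genes at 48 h (squares) and 24 h (circles) on the deposited values, with 95% intervals from limma and filled symbols where the adjusted p was under 0.05. Abcc4 at -1.70 and Ptgs1 at -1.29, both at 48 h, are the filled symbols. The intervals of Ptgs2 exclude 0 at both times without passing over all genes.

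Whether the difference between osmolalities changed between 24 and 48 h was tested directly. limma called 0 of the 10 genes for it, as it called 0% of all genes. An unadjusted p under 0.05 was found for 2 of the 10, against 64 of all 14506 genes. Abcc4 differed by -0.73 ± 0.315 SE more at 48 h than at 24 h and Ptgs1 by -0.63 ± 0.289 (limma adjusted p = 1.00 for each). Ptges had -0.60 ± 0.305 (limma adjusted p = 1.00). Ptgs2 had 0.07, with an interval from -0.74 to 0.88. The passing of Abcc4 and Ptgs1 at 48 h and not at 24 h therefore does not show that their changes differ between the times.

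Changes over time at one osmolality depend on the scale of the arrays, since the median over all genes moved by -0.38 at 300 and by -0.41 at 640 between 24 and 48 h on the deposited values. They are given here on centred arrays. At 640, where the cells stayed in the same medium, 8 of the 10 genes were higher at 48 h than at 24 h and 2 were lower, while on the deposited values 3 were higher and 7 lower. limma called 0 of the 10, against 0.138% of all genes. An unadjusted p under 0.05 was found for 3 of the 10, against 954 of all 14506 genes. For those 3 genes all arrays at 48 h lay above all arrays at 24 h, against 4.95% of all genes. Ptges had a centred mean of 7.21 ± 0.247 at 48 h, against 6.47 ± 0.253 at 24 h (SD, n = 3 each), a change of 0.74 ± 0.176 SE (limma adjusted p = 0.227). Ptgs1 had 0.61 ± 0.239 (limma adjusted p = 0.622) and Abcc4 0.51 ± 0.182 (limma adjusted p = 0.555). On the deposited values these changes were 0.32, 0.19 and 0.09 in that order.

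At 300, 5 of the 10 genes were higher and 5 lower at 48 h than at 24 h on centred arrays, and all 10 were lower on the deposited values. limma called 0 of the 10, against 0.255% of all genes. An unadjusted p under 0.05 was found for 0 of the 10, against 1106 of all 14506 genes. Ptgs1 changed by -0.01 (95% interval from -0.52 to 0.50) and Abcc4 by -0.20 (from -0.59 to 0.19). On centred arrays the order of the Abcc4 means was 9.49 at 640 and 48 h, 8.98 at 640 and 24 h, 7.99 at 300 and 24 h and 7.79 at 300 and 48 h. Only the middle step, between the osmolalities at 24 h, passed among these neighbours. The order for Ptgs1 was the same, with 12.08, 11.47, 10.80 and 10.79, and none of its neighbouring means differed by a change that passed.

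Markers of cell types were compared in the same arrays. At 48 h 4 of the 13 collecting duct markers fell (Aqp2, Aqp3, Avpr2 and Slc14a2), against 0.545% of all genes called lower. Of the 13, 8 were lower and 5 higher, the latter including Krt18 at 0.42, which did not pass. Over all 14506 genes, 6640 were lower. The 13 markers had mean log2 values of 9.46 to 9.59 at 300 and 10.41 to 10.46 at 640. At 24 h Aqp2 was the only one of the 13 to be called on the deposited values, with Avpr2 beside it on centred arrays. Of all genes, 0.0896% were called in either direction on the deposited values and 0.379% lower on centred arrays. The means at 24 h were 9.47 to 10.29 at 300 and 10.15 to 10.75 at 640, which overlapped. On centred arrays they were 9.53 to 9.79 and 10.27 to 10.39, which did not. The 4 markers called at 48 h were lower at 300, as were Ptgs1 and Abcc4, while the list as a whole was mixed. The part of collecting duct cells in the changes of Ptgs1 and Abcc4 was not tested.

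Interstitial cells and fibroblasts, which hold much of the medullary COX-2, had 9 of 10 markers measured, with mean log2 values of 7.21 to 7.63 at 300 and 7.23 to 7.43 at 640 after 48 h, which overlapped. Of these markers 0 were called between osmolalities at either time. The same 9 markers were all higher at 48 h than at 24 h on centred arrays at each osmolality, with medians of 1.06 at 300 and 1.13 at 640. Of the 9, 3 (Col1a1, Pdgfrb and Dcn) rose at each. Of all 14506 genes, 24 were called higher at 300 and 20 at 640 on centred arrays, and 0 at each on the deposited values. Deposited means were lower at 48 h for Col14a1 and Pdgfra at 300 and for Col14a1 and Lum at 640, and higher for the other markers. On centred arrays macrophage markers were also higher at 48 h than at 24 h, 8 of 10 at 300 and 9 of 10 at 640. Their median change was 0.59 at each osmolality, and 0 of them were called. Of all 14506 genes, 8506 were higher at 300 and 7302 at 640. Cd68, Cd14, Cd163 and Adgre1 had lower deposited means at 48 h at each osmolality, and the other macrophage markers higher ones. Over the same time, on centred arrays, Ptgs1, Ptges and Abcc4 changed by 0.61, 0.74 and 0.51 at 640, and by -0.01, 0.15 and -0.20 at 300. None of these 3 genes passed at either osmolality. The part of these cells in the changes over time was not tested.

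Macrophages and endothelium can also express cyclooxygenases. At 48 h the 10 macrophage markers averaged 5.92 to 6.28 at 300 and 6.27 to 6.49 at 640, which overlapped, with 9 of 10 lower and 1 higher. The 8 measured endothelial markers averaged 6.02 to 6.31 at 300 and 6.38 to 6.77 at 640, with 8 of 8 lower. Over all 14506 genes, 6640 were lower at 48 h. On the deposited values limma called 0 of the macrophage and 0 of the endothelial markers at 48 h. An unadjusted p under 0.05 was found for 1 and 2 of them, against 687 of all 14506 genes. The 6 measured limb markers averaged 5.56 to 5.79 at 300 and 6.38 to 6.70 at 640, and Aqp1 fell by 2.48 on the log2 scale (limma adjusted p = 0.000537). On centred arrays, where 1.33% of all genes were called lower at 48 h, Csf1r of the macrophage list, Emcn of the endothelial list and Slc12a1 of the limb list were called as well. At 24 h 7 of 10, 7 of 8 and 5 of 6 markers of these lists were lower at 300, and Aqp1 alone of them was called (log2 change -1.98, limma adjusted p = 0.0142). Over all 14506 genes, 8087 were lower at 24 h and 0.0896% were called in either direction. The part of these cells in the changes of Ptgs1, Ptgs2 and Abcc4 was not tested.

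The rest of the pathway was described through 5 lists with 47 genes, of which 43 were measured. At 48 h 1 of the 43 was called lower, the organic anion transporter Slco4a1, and 0 higher. Over all genes, 0.545% were called lower and 0.172% higher. The median change of the 43 was -0.04 at 48 h and -0.04 at 24 h. Slco4a1 belongs to the same transporter family as Slco2a1 and is known to carry prostaglandin E2 and thyroid hormone. It read 10.66, 10.25 and 10.43 at 300, against 11.52, 11.46 and 11.76 at 640 after 48 h. The groups were separate, and Slco4a1 fell by 1.14 ± 0.233 SE on the log2 scale (limma adjusted p = 0.0353). At 24 h its change was -0.77 ± 0.233 (limma adjusted p = 0.683, and 0.0338 with centring, so that it passed there).

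Of 8 measured genes of arachidonate release, 0 passed at either time. Pla2g4a, the cytosolic phospholipase that supplies the cyclooxygenases, had -0.49 ± 0.320 SE at 48 h and -0.23 ± 0.320 at 24 h, with limma adjusted p = 1.00 at each. Among the 8 other prostanoid synthases 0 passed. The prostaglandin D synthase gene Ptgds had 0.47 ± 0.308 at 48 h, and Ptges2, a second membrane-bound prostaglandin E synthase, had -0.15 at 48 h and -0.20 at 24 h. Of the 5 measured genes listed as other prostanoid receptors, 0 passed. Their changes lay between -0.04 and 0.19 at 48 h and between -0.24 and 0.25 at 24 h. Among them Ptgfrn, with 0.19 at 48 h, encodes a negative regulator of a prostaglandin receptor and not a receptor. Among 12 genes that couple the EP receptors to cyclic AMP and calcium 0 passed. The adenylate cyclase Adcy3 had -0.57 ± 0.186 at 48 h (limma adjusted p = 0.393) and the kinase regulatory subunit Prkar2b -0.63 ± 0.277 (limma adjusted p = 0.930).

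Ptgr1 encodes a reductase that acts after Hpgd in prostaglandin breakdown and also inactivates leukotriene B4. On centred arrays it read 9.40, 9.90 and 9.50 at 48 h and 10.94, 11.31 and 11.10 at 24 h in cells at 300. The arrays did not overlap, and Ptgr1 fell by 1.51 ± 0.201 SE on the log2 scale with time at 300 (limma adjusted p = 0.00395, and 0.0607 for -1.95 on the deposited values). At 640 it read 10.01, 10.57 and 10.03 at 48 h and 10.65, 10.64 and 10.29 at 24 h. The change there was -0.33 ± 0.201 (limma adjusted p = 0.891). Between osmolalities, 300 minus 640, Ptgr1 had -0.60 ± 0.311 at 48 h and 0.60 ± 0.311 at 24 h on the deposited values, and neither passed (limma adjusted p = 1.00 at each). The difference between these changes was -1.20 ± 0.440 and did not pass (limma adjusted p = 1.00).

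**Figure D4:**
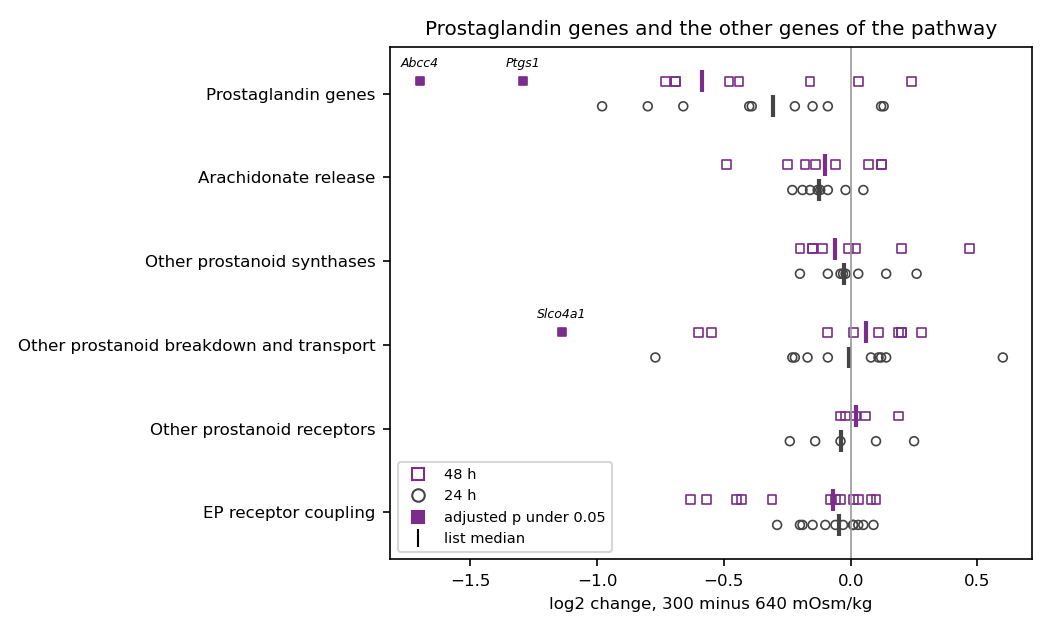
Log2 change, 300 minus 640 mOsm/kg, of the 10 prostaglandin genes (top) and of 43 other genes of the pathway in 5 lists, at 48 h (squares) and 24 h (circles) on the deposited values. Vertical bars give list medians and filled symbols an adjusted p under 0.05, which are Abcc4, Ptgs1 and Slco4a1 at 48 h. The medians of the 10 genes are -0.58 and -0.31 at 48 and 24 h, and those of the other lists lie near 0.

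The genes most like Ptgs1 and Abcc4 over the 12 arrays were found among 14305 others, by the root mean square of the log2 difference between 2 genes, with each array centred on its median and each gene on its own mean. Nearest to Ptgs1 were the collagen gene Col4a4 (0.165), the glycosyltransferase gene Galnt18 (0.192) and the transcription factor gene Foxq1 (0.193), against a median of 0.615 over all genes. Col4a4 and Galnt18 had changes of -1.15 each at 48 h (limma adjusted p = 0.0483 and 0.0603), so Galnt18 did not pass, and Foxq1 fell by 1.00 on the log2 scale (limma adjusted p = 0.0484). Nearest to Abcc4 were the phosphatase-like gene Mtmr10 (0.124), the membrane protease gene Tmprss2 (0.164) and the chaperone gene Hspa4l (0.169), against a median of 0.750. These changed by -1.55, -1.76 and -1.37 at 48 h (limma adjusted p = 0.00299, 0.00125 and 0.0154). The genes nearest to Ptgs1 and to Abcc4 were picked on these same arrays, so similar changes follow from that choice. Ptgs1 itself was the 14th nearest gene to Abcc4, at 0.254, and Abcc4 the 31st nearest to Ptgs1. Ptgs2 ranked 102nd from Ptgs1 and 103rd from Abcc4. Ptger4 (7178th and 7328th) lay at 0.615 and 0.752, about the medians over all genes. Hpgd (9740th and 11743rd) lay further than the median from both. Slco2a1 ranked 9752nd from Ptgs1 and 1221st from Abcc4.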

How the data were processed

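RNA of each of the 12 samples of primary culture was hybridised to 1 Affymetrix array. The authors deposited log2 values per probe set, made with RMA in Affymetrix Power Tools per the submitters' processing notes. Their versions are not given in the sources used here. Array medians differ, so the arrays are not on one scale, and it is not known here whether RMA was run jointly. Of 27596 probe sets, 15310 had 1 gene symbol in the platform's table, 323 several and 11963 were not listed. The brightest probe set per gene left 14506 genes.

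Changes were fitted by lmFit and eBayes (limma 3.58.1, R 4.3.3, 1 mean per group, 12 arrays, 8 residual degrees of freedom), with Benjamini-Hochberg adjustment over all genes and calls under 0.05. Osmolality contrasts used the deposited values and time contrasts centred arrays. Levels carry SDs and changes moderated standard errors. Genes named are the 10 members, called genes and examples of 5 pathway lists, and the 3 nearest profiles of each called member. In each pathway list the rule takes the 2 smallest p-values at each time, of which the text gives examples. Members and lists were chosen with earlier results of these data known. The fit was tested on simulated data.

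Further fits used centring, cyclic loess, no dim genes, trend and robust settings, mean probe sets, only the groups compared, a replicate block and leaving out each array. Leaving out the pair of arrays with low medians at 24 h was chosen after seeing the data. Sequences are from RefSeq (GRCr8).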

Additional observations from a re-analysis of the deposited data

How the results depend on the processing

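At 48 h Ptgs1 and Abcc4 were called under all alternatives run, with changes from -1.46 to -1.12 for Ptgs1 and from -1.87 to -1.56 for Abcc4 when single arrays were left out. At 24 h the number of prostaglandin genes called was 0 on the deposited values and 1 (Abcc4) on centred arrays and with cyclic loess. Without single arrays, changes near 0 turned sign in 10 of 240 fits of the 10 genes at both times. The 240 include fits without an array of the other time. Those leave the change as it was, so they could not turn its sign. At 24 h these were Ptges (-0.21 to 0.10), Ptger2 (-0.30 to 0.03), Ptger4 (-0.09 to 0.34) and Hpgd (-0.01 to 0.23), and at 48 h Ptger4 (-0.06 to 0.21). The cause was not tested. Under the other settings 154 of 158 values kept sign and side of the threshold, and the other 4 passed. Calls over all genes moved more. At 24 h there were 13, against 95 on centred arrays, 98 with cyclic loess, 22 with the replicate block, 20 without the 2 low-median arrays and 3 with only the groups compared. At 48 h there were 104, against 269, 304, 118, 250 and 217 in that order. Without single arrays the counts ran from 51 to 145 at 48 h and from 4 to 24 at 24 h, so the shares of all genes called move by as much. For the mean of both times, 185 calls became 497 on centred arrays, 571 with loess and 357 without that pair. With time, the 37 calls at 300 and 20 at 640 were 0 and 0 on the deposited values. The replicate block left 0 prostaglandin genes called at 24 h and 2 at 48 h, as without it. Replicate numbers do not pair the samples: at 24 h the deviations of same-numbered arrays correlated at -0.125, 0.844 and -0.206 over genes, and only replicate 2 resembled its own number most. Without detection calls, the dim Hpgd sets no limit on small changes.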
